A study of Mus musculus with 6 samples.

Results

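The genes described here encode 8 secreted matrix proteins: the thrombospondins Thbs1, Thbs2 and Thbs3, tenascin C (Tnc), periostin (Postn), osteonectin (Sparc), versican (Vcan) and biglycan (Bgn). They were chosen by gene symbol and are 8 of the 53715 genes in the deposited table. All 8 were among the 26559 genes that passed the filter on low counts. RNA came from cells sorted as CD146+CD45-CD31- pericytes, the cells that wrap capillaries, from gastrocnemius-soleus muscle of 14-week-old male wild-type C57BL/6J mice. The stimulated group (n = 3) had received 40 electrically driven contractions of the lower leg muscles, 20 eccentric and 20 concentric, over about 10 minutes, and tissue was taken 3 hours later. The sham group (n = 3) consisted of unstimulated controls, assigned at random like the other group. The labels give 3 males per group, so each library was taken as 1 animal and the p-values measure the spread between these 6 libraries.

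Matricellular proteins sit in the extracellular matrix but mainly tune how cells adhere, signal and remodel it, rather than bearing load themselves. Thrombospondins are calcium-binding glycoproteins: Thbs1 and Thbs2 restrain angiogenesis through the receptors Cd36 and Cd47, and Thbs1 can release TGF-beta from its latent complex. Tenascin C and periostin appear in tissue under mechanical load or repair, Sparc binds collagen and is abundant in endothelial cells and fibroblasts, versican is a large hyaluronan-binding proteoglycan, and biglycan is a small leucine-rich proteoglycan that binds collagen.

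Transcripts of cells that the sort should have left out were present in all libraries, beside those of pericytes. Libraries held 17520338 to 23709220 estimated reads. Mcam, which encodes the sort antigen CD146, stood at 24.3 to 54.1 CPM (counts per 1000000 counts of TMM-scaled library size) in the stimulated and 39.1 to 105 CPM in the sham libraries. Pecam1, which encodes the excluded antigen CD31, stood at 384 to 577 and 524 to 1277 CPM, and Ptprc, which encodes the excluded antigen CD45, at 989 to 1035 and 194 to 863 CPM. Pericytes are also marked by Pdgfrb, at 12.5 to 43.7 CPM after stimulation and 24.8 to 59.8 CPM in sham, and by Cspg4, at 3.85 to 10.9 and 9.6 to 16.8 CPM. All 10 pericyte and all 7 smooth muscle markers had lower means after stimulation, and none of them was at 0 throughout. Their sums overlapped between the groups. Pericyte markers summed to 156 to 375 CPM after stimulation and 315 to 669 CPM in sham, and smooth muscle markers to 98.6 to 245 and 164 to 448 CPM. The 12 endothelial markers summed to 1772 to 2516 CPM after stimulation and 3069 to 7619 CPM in sham, the highest value belonging to sham replicate 2. The 10 fibro-adipogenic markers, which mark the connective tissue progenitors of muscle, summed to 835, 925 and 1864 CPM in stimulated replicates 1, 2 and 3 and to 1125, 2439 and 1740 CPM in the sham replicates. Lymphocyte markers summed to 1844 to 2104 and 315 to 2006 CPM, the 315 in sham replicate 2, and monocyte and macrophage markers to 485 to 763 and 327 to 1015 CPM. Satellite cell, Schwann cell and erythroid sums overlapped between the groups. In such bulk RNA, fewer cells of a type and less RNA per cell cannot be told apart.

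The comparison asks whether RNA of these genes differed 3 hours after contraction. None of the 8 passed the test, nor did any of the 26559 genes tested (edgeR's quasi-likelihood test, Benjamini-Hochberg adjusted p of 0.05, 0% called). At an unadjusted p under 0.05 there were 3 of the 8, Thbs1 and Tnc with a higher mean after stimulation and Sparc with a lower one, against 1872 of all genes tested (7.05%). DESeq2 called 0 of the 8 at an adjusted p of 0.05, where it called 1.14% of all genes, and had 3 at an unadjusted p under 0.05 (7.69% of all genes). With limma voom 0 of the 8 were called (0% of all genes) and 2 had an unadjusted p under 0.05 (7.01%). From reads summed over transcripts 0 of the 8 were called (0.00377% of all genes) and 3 had an unadjusted p under 0.05 (7.49%). None of the 8 was called without a filter on low counts (0.223% of all genes) or with RLE size factors (0.0113%). Fitted differences were above 0 for 3 genes and below 0 for 5 (48% and 52% of all genes), with a median log2 fold change of -0.08, beside -0.02 over all genes tested.

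**Figure D1:**
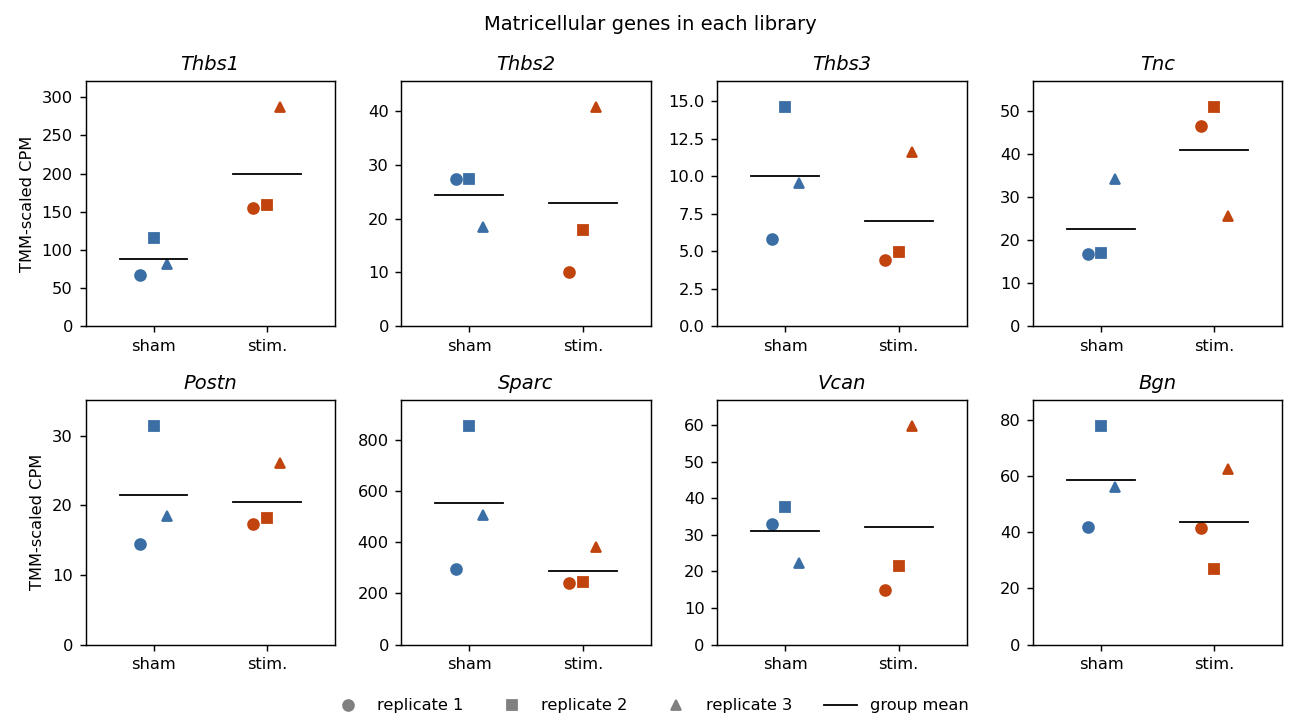
Level of each of the 8 genes in each library, as TMM-scaled CPM from the deposited gene table (vertical axes start at 0 and differ between panels). Points are libraries, shapes are replicate numbers and horizontal lines are group means; in Thbs1 the 3 stimulated libraries, at 155 to 287 CPM, lie above the 3 sham libraries, at 66.7 to 116 CPM, while in the other 7 panels the groups overlap.

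Thbs1 (ENSMUSG00000040152.8, chromosome 2, 118111876 to 118127133, plus strand, GRCm38), the platelet and stromal thrombospondin, stood at 155, 159 and 287 CPM in the 3 stimulated libraries and at 66.7, 116 and 81.1 CPM in the 3 sham libraries. In CPM it was the only one of the 8 whose groups did not overlap, every stimulated library lying above every sham library. In TPM (abundance per transcript length, relative to the library), Thbs1 overlapped, stimulated replicate 2 being at 0.861 and sham replicate 2 at 1.17. Sparc did not overlap in TPM, at 3.96 to 7.07 after stimulation and 7.77 to 25.9 in sham. The share of all genes that separate in TPM was not counted, so this separation has no background beside it. In CPM such a separation was met by 6.12% of all genes tested with the stimulated libraries higher, and by 5.89% with them lower, where none of the 8 fell. Stimulated libraries averaged 200 ± 75.4 CPM (SD, n = 3) and sham libraries 87.8 ± 25.2 CPM (SD, n = 3). The log2 fold change was 1.19 (SE 0.34), or 2.28-fold, with an unadjusted p of 0.00663 and an adjusted p of 0.541 by edgeR's quasi-likelihood test. DESeq2 gave 1.22 with an adjusted p of 0.054, the lowest of 13 other settings of tool, filter, scaling, counting or libraries, over which the adjusted p ran up to 1. Stimulated replicate 3 was the highest library, and leaving it out gave the smallest log2 fold change, 0.83.

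Nearly all Thbs1 reads lay on 1 transcript. The full-length coding transcript Thbs1-201, of 5848 bases, carried 2963, 3273 and 6215 reads in the stimulated and 1587, 1776 and 1533 reads in the sham libraries, 98.8 to 100% of the gene's reads. The other annotated transcript, a retained intron of 659 bases, held at most 21 reads, in sham replicate 2, where it made 16.3% of the gene's TPM. With reads summed over both transcripts the log2 fold change was 1.25 (SE 0.29, unadjusted p 0.0016, adjusted p 0.372 by edgeR). An antisense gene, Gm29233, shares 208 exon bases with Thbs1 and stood at 0.178 to 0.704 CPM.

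Markers of several other cell types differed between the groups in mean, although edgeR called none of them. All 9 tested of 10 neutrophil markers had higher means after stimulation, and their sum was 115 to 201 CPM in stimulated and 37.2 to 52.4 CPM in sham libraries, with Ly6g and Camp at 0 in some libraries. All 9 myofibre markers had higher means, summing to 46.1 to 148 and 26.9 to 44.4 CPM. All 12 endothelial markers had lower means, with the sums given above. Of 9 markers of platelets, which store Thbs1 protein, 6 were tested and 1 had a higher mean, and the sum was 27.3 to 39.5 CPM in stimulated and 26.8 to 58.5 CPM in sham libraries, with Pf4 at 8.62 to 16.6 and 8.71 to 41.6 CPM and Ppbp at most 1.28 CPM. The platelet sums overlapped between groups. All 10 lymphocyte markers had higher means, with the sums given above, and Ptprc did not overlap between groups. The part of the neutrophil, myofibre, endothelial, lymphocyte and platelet lists in the Thbs1 difference was not tested.

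Among 9644 named genes with a mean of at least 3 log2 CPM, those whose log2 CPM most resembled Thbs1 over the 6 libraries included Mt2 (Pearson's r 0.994), a metallothionein, and Sh3pxd2b (r 0.975), a podosome scaffold. Their log2 fold changes were 2.63 and 0.73. These are among the highest of 9644 values over 6 libraries that fall in 2 groups, and 44 genes had an r of at least 0.9.

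Thbs2 (ENSMUSG00000023885.8, chromosome 17, 14665500 to 14694235, minus strand), the closest relative of Thbs1, made by fibroblasts, stood at 10.1, 17.9 and 40.7 CPM in the stimulated libraries and at 27.4, 27.4 and 18.5 CPM in the sham libraries. The stimulated libraries held both the lowest and the highest value, and the groups overlapped. The log2 fold change was -0.09 (SE 0.46, adjusted p 0.995, edgeR). It was -0.80 without stimulated replicate 3 and 0.32 without stimulated replicate 1, so its sign turned with single libraries. The file has 1 Thbs2 transcript, with 195 to 906 reads, and summed reads gave -0.11 (SE 0.44).

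Thbs3 (ENSMUSG00000028047.11, chromosome 3, 89215180 to 89226837, plus strand), a pentameric thrombospondin of skeletal tissue, stood at 4.42, 4.93 and 11.6 CPM after stimulation and at 5.78, 14.6 and 9.56 CPM in sham, with overlapping groups and a log2 fold change of -0.51 (SE 0.47, adjusted p 0.945, edgeR). That value was -1.09 without stimulated replicate 3 and -0.12 without sham replicate 2, the highest library. Summed reads gave -0.29 (SE 0.35), and -0.61 to -0.04 with single libraries left out. Its 11 transcripts include 8 under 1000 bases, which held 17.6 to 34.1% of its reads and 68.3 to 85.4% of its TPM. The coding transcripts Thbs3-201 and Thbs3-202 held 21 to 92 and 21 to 51 reads per library, which is few. Its exons share 318 bases with Mtx1 on the opposite strand, a gene at 14.9 to 27.9 CPM, and whether counting used the strand is not given in the sources used here.

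Tenascin C (Tnc, ENSMUSG00000028364.15, chromosome 4, 63959785 to 64047015, minus strand), a glycoprotein that loosens adhesion and binds integrins, stood at 46.5, 50.9 and 25.7 CPM after stimulation and at 16.7, 17 and 34.1 CPM in sham. Stimulated replicates 1 and 2 were above all sham libraries, but stimulated replicate 3 was below sham replicate 3, so the groups overlapped. Group means were 41 ± 13.4 and 22.6 ± 9.99 CPM (SD, n = 3). The log2 fold change was 0.86 (SE 0.37, unadjusted p 0.0464, adjusted p 0.703, edgeR). It was 0.67 to 1.30 when single libraries were left out, the highest without sham replicate 3, and its unadjusted p was under 0.05 in 8 of 13 other settings. All 4 annotated transcripts are coding and over 1000 bases. Tnc-204, of 7100 bases, took 67.3 to 95.4% of the reads, and both ways of counting gave 0.86. The opposite-strand gene 8030451A03Rik shares 176 exon bases with Tnc and stood at 0.796 to 1.35 CPM.

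Stimulated replicate 3, the lowest of its group for Tnc, was the highest of its group for each of the other 7 genes. That library also had the highest sum of all for tenocyte markers, 350 CPM against 42 to 210 CPM in the other 5. This list of 7 holds the thrombospondin relatives Thbs4 and Comp, and Thbs4 alone stood at 183 CPM there. The same library had the highest myofibre, satellite cell, Schwann cell and erythroid sums, at 148, 59.4, 129 and 395 CPM. The remaining marker lists had their highest sum in another library. What these markers contribute was not tested.

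The 250 bases before the more upstream RefSeq start of Tnc (chr4:64047016-64047265, minus strand, GRCm38.p6) are shown because Tnc was, after Thbs1, the gene with the highest fitted difference, and the table has no Thbs1 entry. They are written 5′ to 3′, with capitals for exact matches of the letters GGGCGG and TATAAA. The first bases of these matches are at -167 and -126 from that start. From the other Tnc start in the table, whose window is chr4:64046937-64047186, the same matches begin at -246 and -205. Near its end, that other window also holds tatataa, which the search for TATAAA does not match. Whether any of these letters serve as a TATA box was not tested.

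Tnc: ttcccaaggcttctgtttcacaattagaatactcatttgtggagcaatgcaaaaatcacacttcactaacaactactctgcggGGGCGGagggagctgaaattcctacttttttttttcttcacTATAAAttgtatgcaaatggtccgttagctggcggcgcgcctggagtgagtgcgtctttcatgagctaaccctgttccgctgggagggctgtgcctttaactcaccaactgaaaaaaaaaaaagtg

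The GC box, searched as GGGCGG on both strands, was held by 32.7% of 32851 RefSeq windows of this length. The TATA box, searched as TATAAA in the same way, was held by 12.4%, and the motifs do not overlap each other here. The AP-1 motif TGANTCA (6.75% of windows), the TEAD motif CATTCC (12.6%) and the CArG box (1.47%) had no match in this Tnc window or in the windows of Thbs2, Thbs3, Postn, Sparc, Vcan and Bgn. The table held 7 of the 8 genes. A match is a description of these letters, and no binding was measured.

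Periostin (Postn, ENSMUSG00000027750.16, chromosome 3, 54361109 to 54391037, plus strand) is a fasciclin protein of the extracellular matrix. It stood at 17.3, 18.2 and 26 CPM after stimulation and at 14.5, 31.4 and 18.5 CPM in sham. These stimulated values, from the deposited gene counts, lay inside the sham range. From summed reads, stimulated replicate 3 stood at 32.3 CPM, above the highest sham value, 27.4 CPM, and the groups overlapped. The log2 fold change was -0.06 (SE 0.33, adjusted p 0.995, edgeR) and 0.07 (SE 0.33) from summed reads. A coding fragment of 655 bases, Postn-206, made 31.7 to 58.6% of the gene's TPM on 21 to 73 reads. Reads moved between the long coding transcripts from library to library: Postn-201 took 309 reads in stimulated replicate 3 and 0 in stimulated replicate 2, so the split of reads over these overlapping isoforms is uncertain.

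Sparc (ENSMUSG00000018593.13, chromosome 11, 55394500 to 55423183, minus strand) had the highest level per length of the 8 (values below). It stood at 240, 243 and 382 CPM after stimulation and at 295, 854 and 506 CPM in sham. Stimulated replicates 1 and 2 lay below all sham libraries, while stimulated replicate 3 lay above sham replicate 1. Means of 288 ± 81.1 and 552 ± 282 CPM (SD, n = 3) gave a log2 fold change of -0.94 (SE 0.41, unadjusted p 0.0466, adjusted p 0.703, edgeR). Without sham replicate 2 it was -0.47 with an unadjusted p of 0.195 (edgeR). That library had the highest endothelial, pericyte, smooth muscle and fibro-adipogenic sums. Without sham replicate 1 the log2 fold change was -1.24. The unadjusted p was under 0.05 in 6 of 13 other settings. Summed reads gave -0.91 (SE 0.37), and Sparc-202, of 2115 bases, carried 60.9 to 76.1% of the reads. The endothelial marker sums were lower in all stimulated libraries than in all sham libraries. All 10 pericyte, all 7 smooth muscle and 8 of 10 fibro-adipogenic markers also had lower means, with sums that overlapped between the groups. Pericyte sums were 156, 207 and 375 CPM in the stimulated and 315, 669 and 372 CPM in the sham libraries. The part of any of these lists in the Sparc value was not tested.

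The genes most like Sparc over the 6 libraries were Ceacam1, Cyb5a and Igfbp7, at r 0.998 to 1.000, and 1026 genes had an r of at least 0.9. For Thbs3 the number was 452, led by the basement membrane and collagen genes Lamc1 and Col6a1 and by Lrrtm2. Bgn was led by Lims1, Lamp2 and Mcu (r 0.980 to 0.999), Postn by Hpcal1, Pdlim1 and Notch1 (r 0.989 to 0.995) and Tnc by Gfer, Gsap and Eif2ak4 (r 0.981 to 0.984). Thbs2 was led by Setd5, Ss18 and Kansl1l (r 0.983 to 0.990), and Vcan by Ctgf, Spon1 and Ss18 (r 0.985 to 0.994). For Vcan 65 genes had an r of at least 0.9. These values of r rest on the deposited gene table, which for Vcan differs from summed reads.

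Biglycan (Bgn, ENSMUSG00000031375.17, chromosome X, 73483602 to 73495933, plus strand) stood at 41.7, 26.8 and 62.6 CPM after stimulation and at 41.8, 78.1 and 56.4 CPM in sham. The groups overlapped, and the log2 fold change was -0.43 (SE 0.36, adjusted p 0.926, edgeR). Summed reads gave -0.71 (SE 0.38, unadjusted p 0.0906). A noncoding fragment of 460 bases, Bgn-206, made 43.7 to 67.2% of the TPM on 36 to 80 reads, while the coding transcript Bgn-201 held 459 to 1653 reads. Without stimulated replicate 3 the values were -0.78 from the table and -1.21 from summed reads. They were -0.16 and -0.41 without sham replicate 2, and -0.17 and -0.50 without stimulated replicate 2. In stimulated replicate 1 the fragment's share was the highest, and the gene stood at 41.7 CPM in the table but at 29.6 CPM from summed reads.

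Versican (Vcan, ENSMUSG00000021614.16, chromosome 13, 89655312 to 89742509, minus strand) was the member whose difference depended most on counting. In the deposited table it stood at 15, 21.4 and 59.8 CPM after stimulation and at 32.9, 37.7 and 22.4 CPM in sham, which gave a log2 fold change of 0.05 (SE 0.48, adjusted p 0.996, edgeR). From summed reads it stood at 29.1, 25.5 and 52.8 CPM and at 21.4, 29.1 and 15.5 CPM, a log2 fold change of 0.70 (SE 0.33, unadjusted p 0.0626, adjusted p 0.702, edgeR). The groups overlapped by both counts. Gm4117, on the opposite strand within Vcan, shares no exon bases with it and stood at 105 to 240 CPM. Leaving out each library gave -0.76 to 0.44 from the table and 0.31 to 0.93 from summed reads, the lowest without stimulated replicate 3 in each case.

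**Figure D2:**
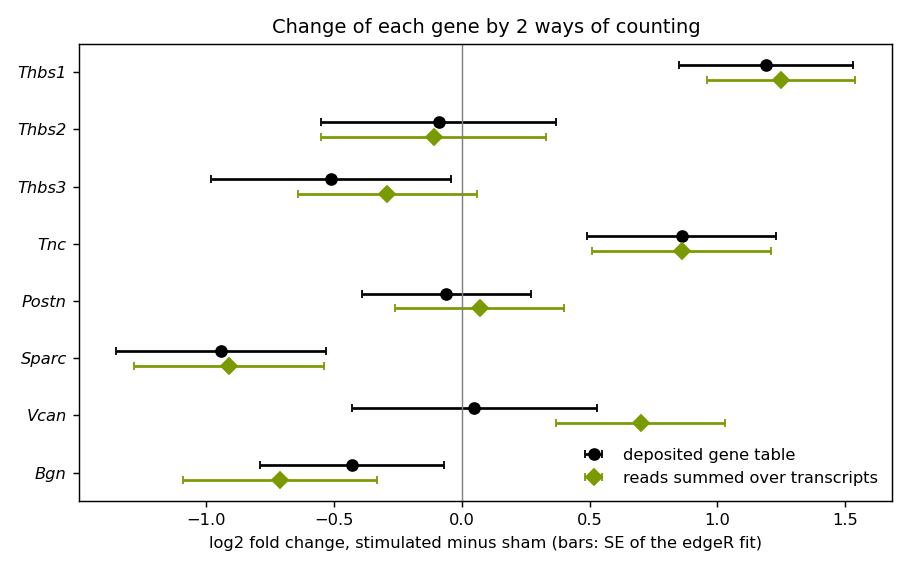
Log2 fold change of each gene, stimulated minus sham, from the deposited gene table (circles) and from reads summed over transcripts (diamonds), with bars of 1 SE of the edgeR fit. Vcan moves from 0.05 to 0.70 between the counts, while Thbs1 (1.19 and 1.25), Tnc (0.86 in both) and Sparc (-0.94 and -0.91) hardly move.

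In 5 of the 6 libraries a single short transcript held the largest share of the versican TPM. Vcan-204 is a partial coding model of 294 bases in 4 exons (chr13:89657655-89678908, minus strand, GRCm38), lying in the region that encodes the C-terminal lectin-like end. Salmon gave it 30.6 to 55.1% of the gene's TPM in 5 libraries on 3 to 14 reads each, and 1.6% on 0 reads, after rounding, in stimulated replicate 1. The full-length Vcan-203, of 12427 bases, held 259 to 895 reads but 9.91 to 34.1% of the TPM. Stimulated replicate 1 was the library in which the table gave 15 CPM and summed reads 29.1 CPM.

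The sequence of Vcan-204 is shown because so few reads gave so large a share. It is written 5′ to 3′ as DNA, with capitals for the 35 bases of its first exon (chr13:89678874-89678908), which are in no exon of Vcan-203; the 259 bases in lower case are shared with it.

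Vcan-204: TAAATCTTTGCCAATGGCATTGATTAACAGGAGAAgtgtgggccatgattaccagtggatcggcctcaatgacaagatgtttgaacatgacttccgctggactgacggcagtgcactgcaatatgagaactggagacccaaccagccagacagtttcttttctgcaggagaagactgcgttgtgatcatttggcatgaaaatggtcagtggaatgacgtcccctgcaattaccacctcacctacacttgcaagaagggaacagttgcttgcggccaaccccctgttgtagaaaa

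The 35 bases in capitals, and the junction after them, are all that sets this model apart from Vcan-203 within its own length. Reads in the remaining 259 bases are shared by both models and are divided between them by estimation.

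**Figure D3:**
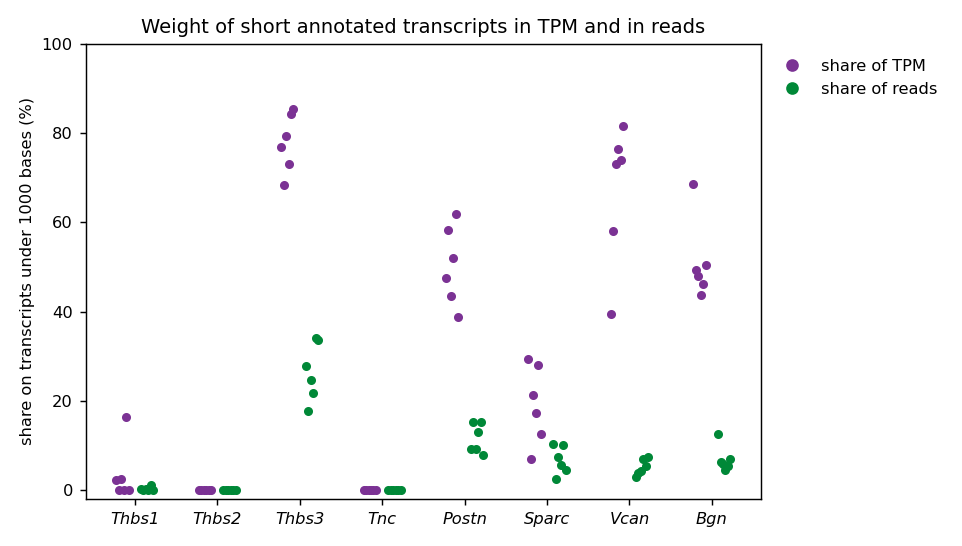
Share of each gene's TPM and of its reads that fell on annotated transcripts under 1000 bases, in percent, with 1 point per library. For Vcan the short models took 39.4 to 81.5% of the TPM but 2.92 to 7.41% of the reads, whereas Thbs2 and Tnc have no such model.

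Levels were compared between genes only per length. By TPM, averaged over the 6 libraries, the order was Sparc (9.54 ± 8.17, SD), Bgn (1.53 ± 0.895), Thbs1 (0.97 ± 0.479), Postn (0.842 ± 0.467), Vcan (0.635 ± 0.372), Thbs3 (0.301 ± 0.216), Thbs2 (0.176 ± 0.0975) and Tnc (0.169 ± 0.0554). Only between Sparc and Bgn did neighbours in this order not overlap in range. The order differed between the groups: mean TPM of Thbs1 and Bgn was 1.22 and 1.09 after stimulation, and in sham Thbs1, at 0.725, came after Bgn (1.96), Postn (0.995) and Vcan (0.729). Transcripts under 200 bases took 88.3 to 91.5% of all TPM. Per kilobase of the longest coding transcript, reads placed Sparc at 178 ± 92.9 CPM per kb (SD, n = 6), Thbs1 at 23.9 ± 12.9, Bgn at 22.7 ± 10.4 and Postn at 6.86 ± 2.12. Tnc followed at 4.5 ± 2.07, Thbs2 at 3.94 ± 1.75, Thbs3 at 2.49 ± 0.798 and Vcan at 2.33 ± 1.03 CPM per kb. Over all 6 libraries, neighbours on this scale did not overlap in range between Sparc and Thbs1 and between Bgn and Postn. Here too the groups differed in order: Thbs1 averaged 33.7 ± 11.2 and Bgn 17.2 ± 8.78 CPM per kb (SD, n = 3) after stimulation, with overlapping ranges, but 14.2 ± 2.36 and 28.1 ± 10.1 CPM per kb in sham, where they did not overlap. Vcan, at 2.88 and 1.77 CPM per kb, stood above Thbs3 (2.24) after stimulation and below it (2.75) in sham.

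**Figure D4:**
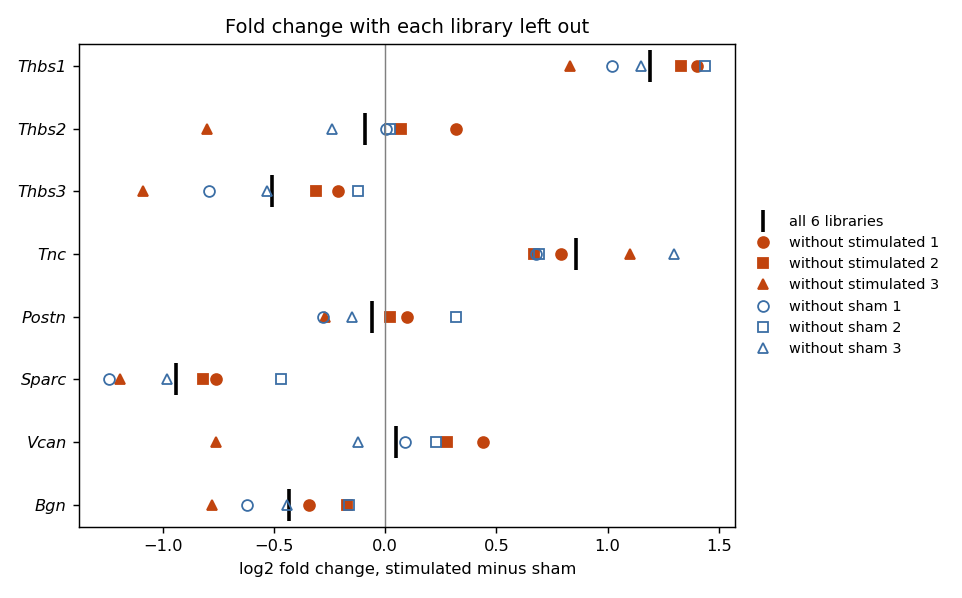
Log2 fold change of each gene, stimulated minus sham, with all 6 libraries (black bar) and with each library left out in turn (filled symbols, a stimulated library; open symbols, a sham library). Thbs1 stays between 0.83 and 1.44 and Tnc between 0.67 and 1.30, whereas Thbs2, Postn and Vcan cross 0.

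Related genes were read from the same fit, in 10 lists of 80 genes, of which 78 were tested. None passed by edgeR (0 higher, 0 lower), and 55 had lower and 23 higher means after stimulation, with a median log2 fold change of -0.28 beside -0.02 over all genes tested. At an unadjusted p under 0.05 there were 8 lower and 3 higher genes, where all genes tested gave 4.41% lower and 2.64% higher. DESeq2 called 2, both lower, Sparcl1 and Has3, where it called 1.14% of all genes.

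The relatives of Sparc and biglycan were mostly lower in mean. Sparcl1, the closest relative of Sparc and abundant in endothelium, stood at 304, 325 and 495 CPM after stimulation and 687, 1549 and 795 CPM in sham, with a difference in log2 of -1.43 (SE 0.38, adjusted p 0.504 by edgeR and 0.0249 by DESeq2), with no overlap. Of the 7 genes of the list of other SPARC family members, Sparcl1 included, 6 had lower means. Spock3 and Fstl1 had -0.76 and -0.63, and -0.18 and -0.62 from summed reads. Of 10 other small leucine-rich proteoglycans, 9 had lower means, with a list median of -0.70. Ecm2 stood at 20 to 48.4 and 56.1 to 114 CPM (log2 fold change -1.36, SE 0.40, adjusted p 0.543, edgeR), and Podn and Aspn had -0.87 and -1.06 with overlapping groups. From summed reads Podn and Aspn had -0.48 and -0.86. The endothelial sums were lower in the same libraries. Of 10 fibro-adipogenic markers 8 had lower means, as had 6 of 7 tenocyte markers, a list that holds the proteoglycan Fmod. All 10 pericyte and all 7 smooth muscle markers also had lower means. The sums of these lists other than the endothelial one overlapped between the groups. The part of any of these lists in the values above was not tested.

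Among the other thrombospondins, tenascins and fasciclin proteins none had an unadjusted p under 0.05 by edgeR. Thbs4, of tendon and muscle, stood at 19.4, 40.3 and 183 CPM after stimulation and 73.9, 102 and 74.4 CPM in sham, again with stimulated replicate 3 highest (log2 fold change -0.05, SE 0.67). Comp, the cartilage thrombospondin, had -0.61 (SE 0.48), and Tnr, Tnn and the fasciclin protein Tgfbi had -0.60, -0.29 and 0.01, all with overlapping groups. Of 5 tested CCN genes, matricellular proteins that answer to stretch, Cyr61 (Ccn1) stood at 75.5, 82 and 102 CPM and at 136, 264 and 141 CPM, with no overlap (log2 fold change -1.06, SE 0.32, adjusted p 0.565, edgeR). Wisp1 and Wisp2 had -0.46 and -0.73, while the other two, Ctgf and Nov, had 0.06 and 0.35. Other matricellular genes had lower means in 5 of 6, with Fbln5 at -0.78, Mfge8 at -0.70 and Ecm1 at -0.48.

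**Figure D5:**
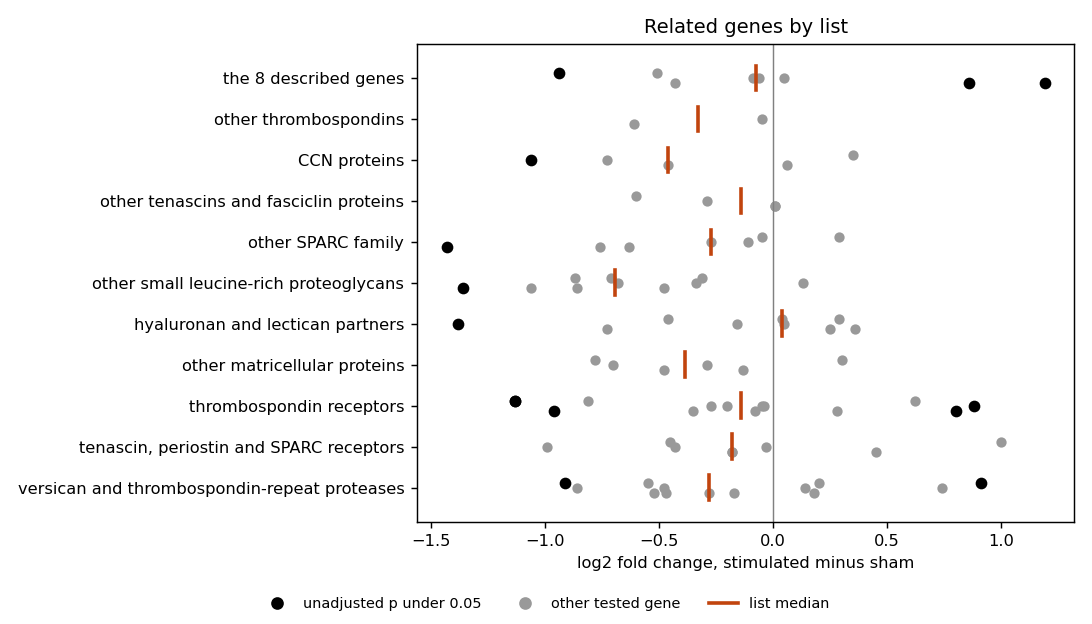
Log2 fold change, stimulated minus sham, of the 8 genes and of the tested genes of 10 related lists. Each point is a gene, black points have an unadjusted p under 0.05, and the red bar is the list median, which lies between -0.70 (small leucine-rich proteoglycans) and 0.04 (hyaluronan and lectican partners).

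Of 14 thrombospondin receptors tested, 10 had lower and 4 higher means, with a median log2 fold change of -0.14. Over the 10 lists, groups did not overlap for 4 genes with stimulated libraries higher and for 7 with them lower, of 78 tested, where 6.12% and 5.89% of all genes tested did so. Those 7 were all highest in sham replicate 2. Cd36, the fatty acid and Thbs1 receptor of capillary endothelium, stood at 404, 528 and 676 CPM after stimulation and 771, 1684 and 1069 CPM in sham (log2 fold change -1.13, SE 0.36, adjusted p 0.589, edgeR). Scarb1, a relative of Cd36, stood at 83.5 to 87.8 and 111 to 261 CPM (-1.13, SE 0.32), and the laminin integrin Itga6 had -0.96 (SE 0.37). Itgb3, which pairs with Itgav to bind Thbs1, stood at 36, 49.7 and 34.1 CPM after stimulation and 23.5, 14.4 and 30.9 CPM in sham (0.80, SE 0.32, adjusted p 0.668, edgeR). Sdc4, a heparan sulfate receptor, stood at 83 to 97.8 and 24.1 to 70.5 CPM (0.88, SE 0.36, adjusted p 0.681). Itgb3 and Sdc4 were picked out after their values were seen. Among receptors of tenascin, periostin and Sparc, Stab1 had -0.99, Itgb6 1.00 and Itgb5 -0.43, with overlapping groups. From summed reads Stab1 had -0.76, Itgb6 0.55 and Itgb5 -0.94.

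Enzymes that act on these proteins did not share a direction. Of 13 proteases, 8 had lower and 5 higher means. Bmp1, the procollagen protease that also cleaves biglycan, stood at 15.1 to 27.1 CPM after stimulation and 30.6 to 48.7 CPM in sham (log2 fold change -0.91, SE 0.30, adjusted p 0.592, edgeR). Mmp3, a stromelysin, stood at 3.63 to 6.41 and 1.78 to 3.41 CPM (0.91, SE 0.38, adjusted p 0.691), and Adamts12 had -0.86. Of 9 tested hyaluronan and lectican partners, a list that also holds relatives of versican, 5 had higher means, with a median log2 fold change of 0.04. The hyaluronan synthase Has3 stood at 11, 10.7 and 15.6 CPM and at 17.9, 46.1 and 33.4 CPM (-1.38, SE 0.36, adjusted p 0.501 by edgeR and 0.0499 by DESeq2). Has1 and the link protein Hapln1 had -0.46 and -0.73, and -0.47 and -0.04 from summed reads. These 3 genes had the smallest p of that list.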

How the data were processed

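Total RNA of 6 sorted-cell libraries was sequenced. The tools listed in the submitters' processing notes, with no roles given, are Salmon 0.8.2, Trimmomatic 0.36, bcl2fastq 2.17.1.14, edgeR and R 3.5.1, and the build listed is GRCm38. The labels' protocols name a stranded low-input total RNA kit. The authors deposited estimated counts per gene, and transcript tables for 135181 transcripts. Per the file headers these transcript tables hold TPM, estimated counts, length and effective length. Transcript lengths are given here in bases. Apart from 1 factor per library, the ratio of a deposited gene count to the gene's summed TPM was the same in all libraries, within 1%, for 100% of 14096 genes with TPM above 0.1 throughout. They are thus TPM-based values rather than sums of reads, and the rows were checked against summed transcript reads.

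Estimated counts were rounded, filtered with filterByExpr (minimum count 10, minimum total 15), scaled by TMM and tested with edgeR 4.0.16 (R 4.3.3) by the robust quasi-likelihood test, stimulated against sham, with Benjamini-Hochberg adjustment over all 26559 genes. SE is the log2 fold change divided by the square root of F. Alternatives used DESeq2 1.42.0, limma voom (limma 3.58.1), other scaling and filters, summed reads, a replicate block and each library left out. Reads per kilobase, and summed reads without each library, were added after seeing the data. Exact permutation of 3 against 3 cannot give a p below 0.1, so it was not used. Libraries of 1 group differed by more than counting error, so the spread between libraries, not depth, is the error given.

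The genes and lists were chosen with earlier results of these data known. Named genes were the 8, up to 3 per related list by smallest p, 3 per gene by Pearson's r (log2 CPM, prior count 2, clone-like symbols left out), and sort genes; 1 gene that this rule names is not reported here, and Itgb3, Sdc4 and Nov were named after their values were seen. Where a symbol had more than 1 identifier the one with the higher mean was used. Coordinates are from GENCODE release 21 of mouse, matched for 99.8% of identifiers without version numbers. Promoters are from RefSeq (GRCm38.p6). Protein sequences were not used here.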

Additional observations from a re-analysis of the deposited data

How the results depend on the processing

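The count of 0 of the 8 genes called held with every other tool, filter, scaling, threshold, count and set of libraries tried. Of the 8, 1 to 4 had an unadjusted p under 0.05. The 4 came without stimulated replicate 3, where edgeR gave such a p to 1883 of 28597 genes. Without stimulated replicate 1 there was 1 of the 8, beside 1087 of 27642 genes, the lowest count over all genes. Without sham replicate 3 there were 2, beside 3286 of 28759 genes, the highest count. Over all genes the count of 0 became 227 with DESeq2 (74 higher, 153 lower), 109 without a filter (44 higher, 65 lower), 3 with RLE size factors, 3 at an adjusted p of 0.1, 1 with summed transcript reads and 0 to 1 with single libraries left out, the 1 without stimulated replicate 3. Of the related genes, DESeq2 called 2. The cause was not tested.

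Of 37 named genes, 7 changed sign under some alternative. Leaving out libraries gave -0.80 to 0.32 for Thbs2, -0.28 to 0.32 for Postn, -0.76 to 0.44 for Vcan, -1.48 to 0.47 for Thbs4, -0.54 to 0.01 for Tnn, -0.26 to 0.40 for Tgfbi and -0.10 to 1.73 for Itgb6. With summed reads and a library left out, a combination chosen after seeing the data, Thbs2 was 0.26, 0.05 and 0.05 without stimulated replicates 1 and 2 and sham replicate 1. Postn was then 0.20, 0.27, 0.26 and 0.11 without stimulated replicates 1 and 2 and sham replicates 2 and 3. Postn was 0.0056 without a filter and 0.07 with summed reads. Vcan was -0.17 with limma voom. Tgfbi was -0.11 with summed reads and Thbs4 0.04 without a filter. The cause was not tested.

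Libraries of the same replicate number did not stand out: deviations from the group means correlated at 0.36, -0.25 and -0.09 for numbers 1, 2 and 3. Pairs of unlike numbers gave -0.29 to 0.36. With 3 libraries a group these correlations cannot exclude a pairing. With the number as a replicate block edgeR still called 0 genes, and Vcan was -0.21. With 3 libraries a group, changes near the size of those of Thbs1, Tnc and Sparc were not separated from the spread between libraries after adjustment in the main edgeR fit. DESeq2 did not call Thbs1, Tnc or Sparc either, but it called Sparcl1 (-1.39) and Has3 (-1.35).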
